A study of Mus musculus with 12 samples.

Results

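Cardiomyocytes of desmin-deficient mice that had swum were compared with those of wild-type mice that had not, the 2 corners of the study in which both the genotype and the exercise differ. The rule took the 3 libraries labelled Des-/- swim and the 3 labelled Des+/+ non-swim, so 6 of the 12 libraries of the series are compared, with 13158 genes tested. Des-/- swim cells came from mice lacking both copies of the desmin gene and put through a swimming protocol, which the study used as a mild muscular stress, and Des+/+ non-swim cells from mice with intact desmin under basal conditions. All mice were 3 months old, of the 129SV background, and carried the MHC-GFP transgene (GFP/GFP), in which the cardiac myosin heavy chain promoter drives green fluorescent protein. Desmin was absent from every cell of the null mice and throughout life, since the deletion is not conditional. Adult cardiomyocytes (ACM) were released by enzymatic perfusion with trypsin and collagenase D and harvested at once, each library pooling the cells of several mice, and polyadenylated RNA was sequenced. No library came from a single mouse, so the spread given here is that between pools.

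Desmin is the muscle-specific intermediate filament protein. Its filaments link the Z-discs of neighbouring myofibrils to each other and to the costameres at the plasma membrane, the intercalated discs that join cardiomyocytes end to end, the mitochondria and the nuclear envelope. Mice without it develop a dilated cardiomyopathy in which cardiomyocytes die and are replaced by fibrous tissue, and mitochondria are among the first structures affected. Endurance exercise raises the mechanical and energetic load on the same structures. Cardiomyocytes draw most of their energy from the oxidation of fatty acids in mitochondria, store and release calcium from the sarcoplasmic reticulum at each beat, and repolarize through potassium channels.

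The libraries compared are not equally deep, and 1 of them stands apart. The Des+/+ non-swim libraries held 8935126, 10177615 and 12072443 reads in genes and the Des-/- swim libraries 6521963, 4320819 and 6130893. Of the uniquely aligned reads, 36.43 ± 2.71% (SD, n = 3) fell in no gene in the former and 60.01 ± 3.95% (SD, n = 3) in the latter (exact permutation test, two-sided p 0.1, the smallest that 3 libraries against 3 can give), and the part of this in the results below was not tested. The share was 47.3, 45.9 and 50.4% in the Des+/+ swim libraries and 52.3, 49.0 and 34.2% in the Des-/- non-swim libraries. On the first principal component of log2 CPM (counts scaled to a common library size), Des+/+ non-swim libraries lay at -41.24, -54.16 and -45.58, and Des-/- swim replicates 1 and 2 at 4.39 and 7.4. Des-/- swim replicate 3 lay at 59.04, beyond 2 of the 3 Des-/- non-swim libraries. For that reason counts that open a group of genes are also given without replicate 3. Where leaving out any 1 of the 12 libraries moved a count by over 1.5 times, the libraries are named.

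**Figure D1:**
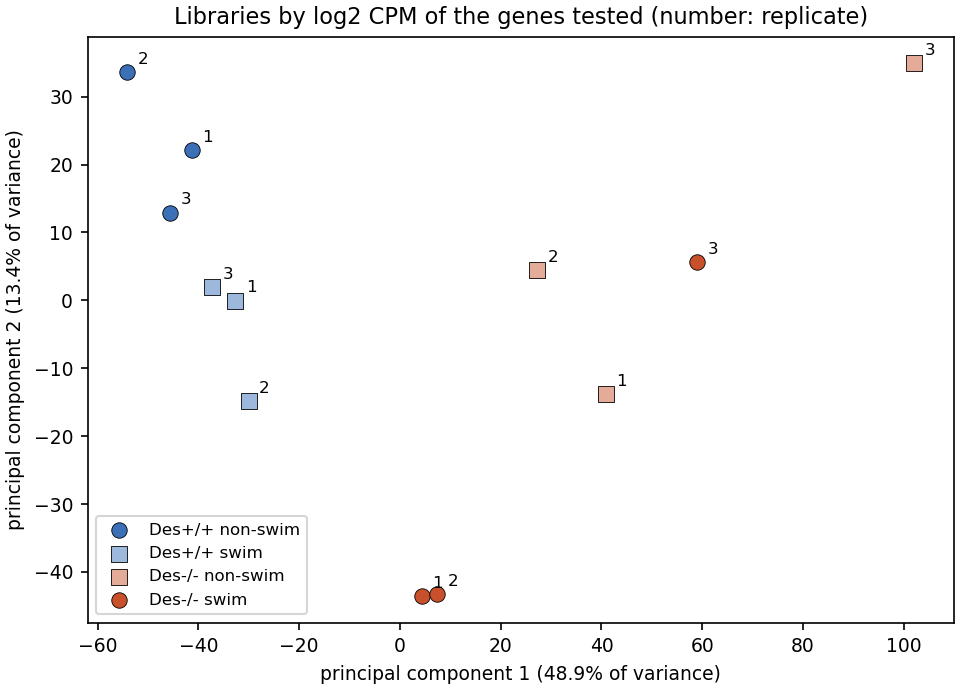
Position of all 12 libraries on the first 2 principal components of log2 CPM, which hold 48.9% and 13.4% of the variance (point: 1 library, number: replicate). Des-/- swim replicate 3 (59.04, 5.66) lies apart from replicates 1 (4.39, -43.57) and 2 (7.4, -43.28) of its group.

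The label of the cells was checked against Myh6, the main myosin heavy chain of the adult mouse ventricle. Myh6 stood at 20572, 37187 and 20721 CPM in the Des+/+ non-swim libraries and at 8470, 8154 and 3649 CPM in the Des-/- swim libraries, so cardiomyocyte RNA was abundant in every library while its level was lower in each Des-/- swim library (log2 change -1.95, SE 0.66, edgeR adjusted p 0.0483). That call is at the limit, since it was made in 2 of the 12 fits that left out 1 library (adjusted p up to 0.144). Markers of other heart cells were present as well. The summed level of 14 fibroblast markers ranged from 6673 to 8124 CPM in Des+/+ non-swim libraries and was 12598, 9962 and 18216 CPM in Des-/- swim replicates 1, 2 and 3. The sum of 15 endothelial markers ranged from 11038 to 13360 CPM against 17745, 19964 and 14860 CPM, and 3 of them rose (1 without Des+/+ non-swim replicate 2 or 3, 0 without Des-/- swim replicate 2). The 22 macrophage markers summed to 329 to 489 CPM against 487, 375 and 1862 CPM, so only replicate 3 stood clearly above the Des+/+ range, and the same was true of the epicardial and mesothelial markers (51.1 to 94.8 CPM against 67.8, 76.5 and 394 CPM). Haemoglobin and other erythrocyte genes summed to 180 to 549 CPM against 853, 2927 and 492 CPM, with replicate 3 inside the Des+/+ range. In bulk RNA, fewer cells of a type and less RNA per cell cannot be told apart, and how much these shifts add to any gene's change was not tested.

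Of the 13158 genes tested with edgeR, 3533 (26.9%) were called at an adjusted p under 0.05, 1332 higher (10.1%) and 2201 lower (16.7%) in Des-/- swim ACM. These shares over all genes are the ones to set beside the counts of each list below. All 3 libraries of one group lay beyond all 3 of the other for 3469 called genes, and for 5864 (44.6%) of all genes tested. By size, 498 called genes were more than 2-fold higher and 1055 more than 2-fold lower, beside a median log2 change of 0.02 over all genes. Leaving out Des-/- swim replicate 3 gave 930 rises and 1738 falls, 2668 in all, and leaving out Des+/+ non-swim replicate 2 gave 2263 calls. Which direction prevailed rested on the scaling: 37.7% of called genes were higher with the trimmed mean of M-values (TMM), 51.57% with upper-quartile scaling and 66.82% with unscaled library totals, which moved the median of all genes to 0.13 and 0.26 on the log2 scale.

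Desmin itself (Des, ENSMUSG00000026208, chr1:75360329-75368579, GRCm38) was the check of the genotype. Its level was 1472, 3647 and 1982 CPM in Des+/+ non-swim libraries and 91.3, 97.5 and 101 CPM in Des-/- swim libraries. The groups were far apart and the 3 null libraries lay close together, at a log2 change of -4.62 (SE 0.36, edgeR adjusted p 2.56e-04). Reads were thus still assigned to the gene in each null library. Of 12 desmin partners and other cytoplasmic intermediate filament genes, 5 fell and 1 rose. Syncoilin (Sync), an intermediate filament protein of muscle, fell from 17.4, 24.4 and 12.6 CPM to 3.7, 3.72 and 4.46 CPM (log2 change -2.19, SE 0.28, edgeR adjusted p 9.53e-04). Vimentin (Vim), the intermediate filament protein of mesenchymal and endothelial cells, was the member that rose, from 981, 761 and 970 CPM to 1923, 1878 and 1999.9 CPM (log2 change 1.10, SE 0.24, edgeR adjusted p 0.00737).

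**Figure D2:**
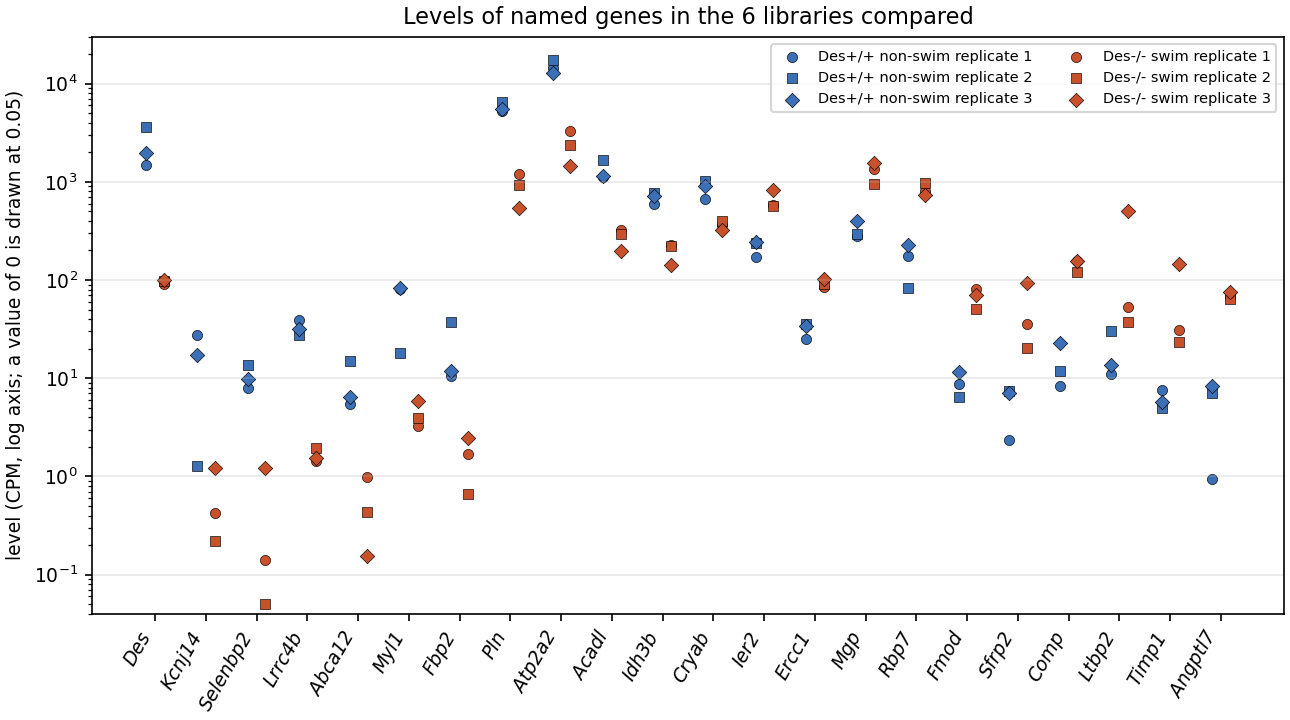
Level of 22 named genes in each of the 6 libraries compared (CPM, log axis; blue: Des+/+ non-swim, red: Des-/- swim; symbol: replicate). Des falls from 1472 to 3647 CPM to 91.3 to 101 CPM, and for Ltbp2 and Timp1 replicate 3 of Des-/- swim lies far above replicates 1 and 2.

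Many of the genes that fell serve mitochondrial energy supply. Of 21 citric acid cycle enzymes tested, 20 fell and 0 rose (median log2 change -1.86), and of 32 genes of fatty acid uptake and oxidation 26 fell and 1 rose (median -1.60). Without replicate 3 the counts were 18 lower for the cycle and 26 lower and 2 higher for fatty acids. Idh3b, a subunit of the rate-controlling isocitrate dehydrogenase of the cycle, stood at 599, 777 and 712 CPM in Des+/+ non-swim and 227, 224 and 143 CPM in Des-/- swim libraries (log2 change -1.81, SE 0.26, edgeR adjusted p 0.00121). Acadl, the long-chain acyl-CoA dehydrogenase that takes the first step of beta-oxidation, fell from 1114, 1662 and 1152 CPM to 323, 295 and 196 CPM (log2 change -2.27, SE 0.36, edgeR adjusted p 0.00173). In both genes the lowest Des+/+ library lay well above the highest Des-/- library. The exception was Fabp4, a fatty acid binding protein of capillary endothelium and fat, which rose from 2342, 1738 and 2372 CPM to 4954, 6191 and 3496 CPM (log2 change 1.18, SE 0.30, edgeR adjusted p 0.0152). It was not called without Des+/+ non-swim replicate 2 or Des-/- swim replicate 2. It is also one of the endothelial markers above.

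Of the respiratory chain subunits, those that were called were all lower. Of 37 complex I subunits 21 fell (median log2 change -0.81) and of 41 subunits of complexes II to V 31 fell (median -0.94), with 0 rising in either list. These counts were 15 and 19 without replicate 3. Ndufs1, the largest complex I subunit, fell from 686, 882 and 702 CPM to 196, 183 and 119 CPM (log2 change -2.19, SE 0.36, edgeR adjusted p 0.00192). Of 76 mitochondrial ribosomal proteins 46 fell (median -0.60), 35 without replicate 3, and Mrpl3 did so with a log2 change of -1.25 (SE 0.14, edgeR adjusted p 6.76e-04). The exchange of energy across the mitochondrial membranes was represented by 12 genes, 9 of them lower (median -1.15) and 6 without replicate 3. Among these was the pore of the outer membrane Vdac1, which fell from 734, 1102 and 886 CPM to 275, 259.6 and 171 CPM (log2 change -1.95, SE 0.26, edgeR adjusted p 0.00103). Of 23 genes of mitochondrial shape 17 fell (median -0.82), 14 without replicate 3 and 11 without replicate 2 of Des-/- swim, with the inner-membrane fusion GTPase Opa1 at -1.58 (SE 0.23, edgeR adjusted p 0.00124).

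Genes of glucose use and regulators of energy metabolism were also among those that fell. Of 25 genes of glucose uptake and glycolysis 18 fell and 0 rose (median log2 change -0.97). Without replicate 3 of Des-/- swim 12 fell, and without replicate 2 of Des+/+ non-swim 11. Among them was hexokinase 2 (Hk2) at -1.71 (SE 0.30, edgeR adjusted p 0.00282). Of 23 energy regulators and nuclear receptors 10 fell and 1 rose (median -0.63), and 9 fell without replicate 3. Prkaa2, the AMP-activated kinase subunit that predominates in striated muscle, fell from 123, 153 and 115 CPM to 23.9, 20.8 and 11.7 CPM (log2 change -2.80, SE 0.47, edgeR adjusted p 0.00232). Esrra, a nuclear receptor that drives genes of oxidative metabolism, fell with a log2 change of -0.91 (SE 0.18, edgeR adjusted p 0.0045). The member that rose was Pparg, the nuclear receptor best known from fat cells, described below with the genes of swimming.

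Genes of excitation and calcium cycling were called lower in numbers as well. Of 20 potassium channel genes 16 fell and 0 rose (median log2 change -1.87), and of 22 genes of the sarcoplasmic reticulum and calcium handling 15 fell and 0 rose (median -1.61). Without replicate 3, 8 potassium channel and 13 calcium handling genes were called lower, and 8 potassium channel genes without Des+/+ non-swim replicate 2. Calcium handling had 2 genes higher without Des+/+ swim replicate 2, and DESeq2 called 2 higher. It had 1 higher without Des+/+ non-swim replicate 2, Des-/- non-swim replicate 3 or Des-/- swim replicate 1. Kcnj5, a subunit of the acetylcholine-gated channel of heart muscle, stood at 73.0, 112 and 71.5 CPM against 14.5, 11.4 and 5.23 CPM (log2 change -3.04, SE 0.54, edgeR adjusted p 0.00289). Phospholamban (Pln), the inhibitor of the calcium pump, stood at 5235, 6566 and 5530.2 CPM against 1214, 935 and 540.2 CPM (log2 change -2.69, SE 0.47, edgeR adjusted p 0.00275), and the pump Atp2a2 at 14372, 17586 and 12858 CPM against 3323, 2389 and 1455 CPM (log2 change -2.64, SE 0.60, edgeR adjusted p 0.00879). Inhibitor and pump were thus lower by a like amount, and for both Des-/- swim replicate 3 was the lowest library. Camk2d, the calcium/calmodulin kinase of cardiomyocytes, fell by less (log2 change -1.41, SE 0.18, edgeR adjusted p 9.53e-04). Of 15 sodium and pacemaker channel genes 6 fell (median -0.97) and of 20 adrenergic and muscarinic signalling genes 7 fell (median -0.44), among them the alpha-1B receptor Adra1b (log2 change -3.12, SE 0.55, edgeR adjusted p 0.00267).

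Contractile and junctional genes were lower at the level of RNA, whereas the list of the nuclear lamina was not. In the Z-disc and titin list 14 of 20 genes fell (median log2 change -1.32), in the thin filament 9 of 13 (median -1.51), in the intercalated disc and desmosome 12 of 18 (median -1.18) and in the thick filament 6 of 15 (median -1.19), and 0 rose in these 4 lists. Without replicate 3 the counts were 11, 8, 6 and 5. The intercalated disc count rested on single libraries, with 5 without Des+/+ non-swim replicate 2 and 7, 6 and 7 without Des+/+ non-swim replicate 1 and Des-/- swim replicates 1 and 2. The Z-disc count was 7 without Des+/+ non-swim replicate 2. The costamere and dystrophin complex had 15 of 20 genes lower (median -1.002), with and without replicate 3, and 1 higher, Ilk, the integrin-linked kinase (log2 change 0.62, SE 0.12, edgeR adjusted p 0.00383). Cdh2, the N-cadherin of the intercalated disc, fell from 209.6, 307 and 187 CPM to 51.6, 34.1 and 45.9 CPM (log2 change -2.41, SE 0.39, edgeR adjusted p 0.0019). Gja1, the gap junction protein connexin 43, fell from 545, 569 and 486 CPM to 200.1, 139 and 146 CPM (log2 change -1.72, SE 0.28, edgeR adjusted p 0.00191). The ubiquitin ligase Trim63 of the thick filament list fell more than either (log2 change -2.79, SE 0.40, edgeR adjusted p 0.00119). Genes of the nuclear lamina and its links to the cytoskeleton moved little as a list, 2 of 18 lower (median -0.03), and both were inner nuclear membrane proteins, Sun2 (log2 change -0.69, SE 0.11, edgeR adjusted p 0.00165) and Tor1aip1 (log2 change -0.50, SE 0.14, edgeR adjusted p 0.0209). The list had 1 gene lower without each of Des+/+ non-swim replicates 1 and 2 and Des-/- swim replicates 1 and 2, since Tor1aip1 was then not called.

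Of 18 core cardiac transcription factors 12 fell and 0 rose (median log2 change -0.95), and 8 did so without replicate 3 of Des-/- swim, 7 without its replicate 2 and 5 without replicate 2 of Des+/+ non-swim. Srf, the serum response factor that drives muscle genes, fell from 97.8, 130.3 and 95.7 CPM to 57.4, 61.5 and 58.2 CPM (log2 change -0.87, SE 0.14, edgeR adjusted p 0.00187). Gata4 fell from 88.9, 141 and 106 CPM to 49.6, 50.3 and 31.7 CPM (log2 change -1.35, SE 0.24, edgeR adjusted p 0.00264). The site bound by Srf is the CArG box, and its letters were searched for on both strands of the promoter windows, which run from 250 bases before to 50 bases after each transcription start. The box stood in 1.63% of the 32851 windows. Counted by gene over all windows of a gene, it stood in 1.59% of the genes tested that had a window. By gene it stood in 2 of 11 thin filament genes (18.2%), 3 of 18 Z-disc genes (16.7%) and 2 of 11 core transcription factors (18.2%). It stood in 34 of 1780 called lower genes (1.91%) and in 1.72% of called higher genes. Among members that fell, it stood in 1 of 8 thin filament, 0 of 6 thick filament, 3 of 13 Z-disc and 2 of 8 transcription factor genes with a window. The box also stood in 18.8% of fetal and pathological stress genes with a window, a list with 2 called higher and 3 lower. It stood in 11.1% of immediate early genes with a window, a list with 6 higher and 0 lower. A match is a description of letters and not of binding. Windows of Srf itself, which holds the box more than once, of Actc1, the cardiac actin of the thin filament, and of Ldb3, a Z-disc protein, are shown to let the boxes of genes that fell be compared. Actc1 was chosen after its values were seen (log2 change -1.87, SE 0.42, edgeR adjusted p 0.00782), and Ldb3 changed by -2.05 (SE 0.37, edgeR adjusted p 0.00297). The sequences are from RefSeq on GRCm38.p6, 5′ to 3′ on the strand of the gene, with the CArG boxes in capitals.
Srf (chr17:46556113-46556412, minus strand): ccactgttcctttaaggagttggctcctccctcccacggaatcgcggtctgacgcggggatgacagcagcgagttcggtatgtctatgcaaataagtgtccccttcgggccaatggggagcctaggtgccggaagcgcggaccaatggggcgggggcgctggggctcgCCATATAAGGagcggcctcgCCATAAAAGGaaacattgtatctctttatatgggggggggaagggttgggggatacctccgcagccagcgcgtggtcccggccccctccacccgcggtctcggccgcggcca
Actc1 (chr2:114052826-114053125, minus strand): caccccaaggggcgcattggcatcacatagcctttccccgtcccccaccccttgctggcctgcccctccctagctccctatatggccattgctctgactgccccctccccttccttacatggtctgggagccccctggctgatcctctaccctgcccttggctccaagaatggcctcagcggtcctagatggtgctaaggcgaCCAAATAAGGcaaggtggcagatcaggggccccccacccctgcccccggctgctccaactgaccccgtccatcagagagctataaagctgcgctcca
Ldb3 (chr14:34588632-34588931, minus strand): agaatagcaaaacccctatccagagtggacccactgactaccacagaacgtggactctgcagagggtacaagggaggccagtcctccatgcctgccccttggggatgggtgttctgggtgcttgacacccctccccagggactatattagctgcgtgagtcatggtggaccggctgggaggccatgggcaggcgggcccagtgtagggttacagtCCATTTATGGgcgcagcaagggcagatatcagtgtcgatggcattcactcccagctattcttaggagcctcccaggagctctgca

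Protein quality control fell on the side of the small heat shock proteins. Of 10 genes of small heat shock proteins and their co-chaperone Bag3, 8 fell and 0 rose, both with all libraries (median log2 change -1.21) and without replicate 3 (median -1.32). Alpha-B crystallin (Cryab), the chaperone that binds desmin, fell from 668, 1028 and 914 CPM to 362, 398 and 327 CPM (log2 change -1.26, SE 0.20, edgeR adjusted p 0.00184). Hspb8, a partner of Bag3, fell from 293, 621 and 331 CPM to 121, 105 and 139 CPM (log2 change -1.77, SE 0.29, edgeR adjusted p 0.00206). Of 15 genes in the Hsp70 and Hsp90 list, which also holds mitochondrial chaperonin genes and regulators, 5 fell (median -0.58). Only 2 or 3 did without any 1 of Des-/- swim replicates 1, 2 and 3 and Des+/+ non-swim replicates 1 and 3. The clearest was the mitochondrial chaperonin Hspd1 (log2 change -1.78, SE 0.23, edgeR adjusted p 9.51e-04). Proteasome subunits were 14 lower and 2 higher of 34 (median -0.35), 10 lower without replicate 3 and 8 or 9 lower without Des-/- swim replicate 1 or 2 or Des+/+ non-swim replicate 2 or 3. Psmb8, the subunit of the immunoproteasome that interferon induces, was among those that rose (log2 change 1.06, SE 0.22, edgeR adjusted p 0.00567). Of 25 autophagy genes 8 fell (median -0.29), but 3 did without replicate 3 of Des-/- swim, 5 without its replicate 1 or 2, and 2 and 5 without replicates 2 and 3 of Des+/+ non-swim. Of 30 lysosome and cathepsin genes 0 were called in edgeR (3 at an unadjusted p under 0.05, 2 called by DESeq2, 1 called lower by edgeR without replicate 3, median 0.02), although 6 were called higher and 4 lower without Des-/- non-swim replicate 3. In antioxidant defence 9 of 27 genes fell and 3 rose (median -0.25), and 8 fell and 1 rose without replicate 3. The rises were also 1 without Des+/+ non-swim replicate 2 or 3, and 5 without Des-/- non-swim replicate 2 or 3. The members that fell most clearly act in mitochondria, such as Prdx3 (log2 change -1.84, SE 0.27, edgeR adjusted p 0.00136) and Sod2 (log2 change -1.75, SE 0.27, edgeR adjusted p 0.00162). Ucp2, a carrier of the inner membrane, was among the 3 that rose (log2 change 1.64, SE 0.38, edgeR adjusted p 0.0099).

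Taken over all genes, in lists or not, the largest falls by the naming rule, Des set apart, were Zfp429, Kcnj14, Sln, Selenbp2, Lrrc4b, Sun3, Abca12, Dcaf12l1, Myl1, Igfals and Fbp2. Myl1, a myosin light chain of fast skeletal muscle, stood at 81.1, 18.1 and 83.0 CPM against 3.27, 3.94 and 5.85 CPM (log2 change -3.80, SE 0.58, edgeR adjusted p 0.00153). Fbp2, the muscle fructose bisphosphatase, stood at 10.6, 37.6 and 11.8 CPM against 1.71, 0.656 and 2.46 CPM (log2 change -3.58, edgeR adjusted p 0.00264). Replicate 2 of Des+/+ non-swim was the lowest of its group for Myl1 and the highest for Fbp2. In both genes it was above all 3 Des-/- swim libraries, which the naming rule required, since it takes only genes without overlap. Lrrc4b, a leucine-rich repeat membrane protein, fell from 39.5, 27.6 and 31.4 CPM to 1.42, 1.97 and 1.54 CPM (log2 change -4.33, SE 0.71, edgeR adjusted p 0.00196). Kcnj14, an inward rectifier potassium channel, stood at 27.8, 1.29 and 17.1 CPM against 0.427, 0.219 and 1.23 CPM, so that its Des+/+ replicate 2 nearly met the highest Des-/- library (log2 change -4.53, SE 1.03, edgeR adjusted p 0.00877). The others were low in the null libraries, and their folds are ratios of summed, depth-scaled counts. Sun3 had 79, 13 and 68 counts against 2, 2 and 2, a ratio of 17.2 (95% counting interval 7.71 to 47.5). Sarcolipin (Sln), an atrial inhibitor of the calcium pump, had 13, 5 and 64 counts against 1, 1 and 0, a ratio of 26.4 (7.08 to 222), and was called in 7 of the 12 fits that left out 1 library (adjusted p 0.106 without Des-/- swim replicate 3). Zfp429 had 43, 2 and 30 counts against 0, 1 and 0, a ratio of 48.3 (8.4 to 1930), and had an adjusted p of 0.0617 without that replicate. Zfp429 was called in 9 of the 12 fits, also losing its call without Des+/+ non-swim replicate 1 or Des-/- swim replicate 1, and Sln lost it without Des+/+ non-swim replicate 1 or 3 or any 1 of the Des-/- swim libraries. These intervals cover counting error only.

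Fewer genes were called higher under TMM scaling, 1332, and this count moved with several libraries. It was 930 without Des-/- swim replicate 3, and 1030 and 1004 without its replicates 1 and 2. Without Des+/+ non-swim replicates 1, 2 and 3 it was 796, 763 and 833. By the naming rule the largest rises included Slfn4, Slc6a7, Naip5, Angptl7, Gpr173, Timp1, Ltbp2, Comp, Mt2, Ccn5 and Sfrp2. Angptl7 (chr4:148495183-148500460), a secreted angiopoietin-like protein, stood at 0.943, 7.13 and 8.39 CPM against 67.1, 63.9 and 75.0 CPM (log2 change 3.62, SE 0.54, edgeR adjusted p 0.00137). Comp, a matrix protein of cartilage and tendon, stood at 8.37, 11.9 and 22.6 CPM against 157, 121 and 156 CPM (log2 change 3.33, SE 0.45, edgeR adjusted p 0.00103). In these 2 genes the 3 Des-/- swim libraries lay close together, and the changes were 3.55 and 3.27 without replicate 3. Ltbp2, a matrix protein that resembles the binders of latent TGF-beta, differed from them. It stood at 11.1, 30.4 and 13.8 CPM against 53.8, 37.8 and 503 CPM (log2 change 3.43, SE 1.09, edgeR adjusted p 0.037), and without replicate 3 its change was 1.32 (adjusted p 0.285). It was called in 6 of the 12 fits that left out 1 library, in none of those that left out a Des+/+ non-swim library or Des+/+ swim replicate 1 or 3. Timp1, an inhibitor of metalloproteinases, went from 7.54, 5.03 and 5.68 CPM to 30.9, 23.2 and 147 CPM (log2 change 3.47, SE 0.86, edgeR adjusted p 0.0131), and its change was 2.16 (adjusted p 0.0557) without that replicate. Slfn4, Mt2 and Ccn5 lost their calls in the same way, with adjusted p 0.075, 0.0563 and 0.298, and were called in 9, 9 and 8 of the 12 fits. Besides replicate 3, Slfn4 rested on Des+/+ non-swim replicates 1 and 3, Mt2 on its replicates 2 and 3, Timp1 on its replicate 2, and Ccn5 on its replicates 1 and 3 and on Des+/+ swim replicate 1. Naip5, a sensor of bacterial flagellin with close paralogs that may share its reads, rose from 0.354, 3.04 and 0.541 CPM to 14.6, 10.7 and 22.8 CPM (log2 change 3.63, SE 0.80, edgeR adjusted p 0.00762).

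The matrix lists showed the same division between a few genes that rose in all 3 libraries and a median carried by replicate 3. Of 31 matricellular and crosslinking genes 7 rose and 0 fell (median log2 change 1.21), but without replicate 3 this was 4 and the median 0.30. It was also 4 without any 1 of the Des+/+ non-swim libraries or Des+/+ swim replicate 1 or 3, and 17 without Des-/- non-swim replicate 3. Fibromodulin (Fmod), a proteoglycan that binds collagen fibrils, rose from 8.72, 6.43 and 11.5 CPM to 81.5, 50.5 and 70.5 CPM (log2 change 2.92, SE 0.32, edgeR adjusted p 6.05e-04, and 2.88 without replicate 3). Mfap4, a microfibril protein, rose from 53.0, 43.2 and 62.6 CPM to 158, 149 and 559 CPM (log2 change 2.45, SE 0.47, edgeR adjusted p 0.00406, and 1.54 without replicate 3). Of 23 collagen chains 1 rose, Col8a2 (log2 change 2.63, SE 0.82, edgeR adjusted p 0.0348), and 0 did without replicate 3 (median 0.68 and 0.12) or any 1 of the Des+/+ non-swim libraries, while 7 did without Des-/- non-swim replicate 3 and 2 without either of its other replicates. Of 18 metalloproteinases and inhibitors 6 rose and 1 fell (median 0.89). Without replicate 3 of Des-/- swim 3 rose and 0 fell (median 0.38), 3 rose without Des+/+ non-swim replicate 1 or 2 and 4 without Des-/- swim replicate 1. Mmp23 stood at 13.7, 17.2 and 17.9 CPM against 43.1, 38.1 and 89.3 CPM (log2 change 1.81, SE 0.34, edgeR adjusted p 0.00342). Of 22 genes of TGF-beta signalling 4 rose and 1 fell (median 0.33). This was 1 rise without replicate 3 of Des-/- swim (median 0.10) or any 1 of the Des+/+ non-swim libraries, and 2 without Des+/+ swim replicate 1 or 3. Among the 4 was the ligand Bmp4 (log2 change 0.88, SE 0.21, edgeR adjusted p 0.011). Of the 14 fibroblast markers 4 rose (median 0.84), 3 without replicate 3 and 2 without Des+/+ non-swim replicate 2 or 3, the clearest being matrix Gla protein, Mgp, from 283, 291 and 399 CPM to 1335, 942 and 1554 CPM (log2 change 1.98, SE 0.27, edgeR adjusted p 0.00103). The summed fibroblast markers given above moved with these lists, and their part in them was not tested.

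Some secreted Wnt antagonists were among the rises. Of 16 Wnt antagonists and targets 5 rose and 0 fell (median log2 change 1.01), and 4 rose without replicate 3 (median 0.83). The median ran from 0.504 to 1.39 when 1 of the 12 libraries was left out. Sfrp2, a decoy for Wnt ligands, rose from 2.36, 7.48 and 7.13 CPM to 35.4, 20.6 and 92.5 CPM (log2 change 3.12, SE 0.60, edgeR adjusted p 0.00418). Dkk3 rose from 20.3, 23.5 and 42.5 CPM to 202, 131 and 75.9 CPM, and here replicate 3 was the lowest of its group (log2 change 2.24, SE 0.50, edgeR adjusted p 0.00798). Frzb, another decoy, changed by 1.66 (SE 0.34, edgeR adjusted p 0.00543). Of 27 Notch pathway genes 5 rose and 0 fell, with and without replicate 3 (medians 0.09 and 0.18). The count was 2 without Des+/+ non-swim replicate 2 or Des-/- swim replicate 2, and 3 without Des+/+ non-swim replicate 3 or Des-/- swim replicate 1. They were led by Numbl, an antagonist of Notch, which rose from 13.2, 17.8 and 15.6 CPM to 36.3, 34.3 and 53.4 CPM (log2 change 1.41, SE 0.22, edgeR adjusted p 0.00149). The endothelial receptor Notch4 rose with a log2 change of 0.73 (SE 0.20, edgeR adjusted p 0.0207) and was called in 8 of the 12 fits that left out 1 library, while Notch1, a receptor that the study follows, stood at 240.4, 248 and 259.8 CPM against 235, 308 and 253 CPM (log2 change 0.09, SE 0.15, edgeR adjusted p 0.679). Of 12 hedgehog pathway genes 3 rose (median 0.23), Kif7 (1.11), Gli1 (1.24) and Gli2 (1.26), of which Gli2 was not called without replicate 3, and 1 of the 3 was called without Des+/+ non-swim replicate 1.

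Some interferon-stimulated genes rose, each by a modest amount. Of 28 tested, 10 rose and 0 fell (median log2 change 0.68), and 6 rose without replicate 3 (median 0.57). Leaving out Des+/+ non-swim replicates 1, 2 and 3 gave 18, 5 and 6. Ifit3, an antiviral effector, rose from 20.04, 21.9 and 14.4 CPM to 53.6, 44.0 and 57.7 CPM (log2 change 1.47, SE 0.27, edgeR adjusted p 0.00337). Oas2, a sensor of double-stranded RNA, rose from 56.5, 28.3 and 37.9 CPM to 116, 89.2 and 80.2 CPM (log2 change 1.22, SE 0.26, edgeR adjusted p 0.00652). In both genes the lowest Des-/- swim library lay above the highest Des+/+ non-swim library. Type I interferon acts through a complex that holds Stat2 and Irf9 at the interferon-stimulated response element, whose core, the letters GAAA repeated after a gap of any 2 bases, was searched for on both strands of the same windows. It stood in 3.44% of all 32851 windows and, counted by gene, in 3.8% of the genes tested that had a window. By gene it stood in 12 of the 21 listed genes with a window (57.1%). It stood in 51 of 1046 called higher genes with one (4.88%) and in 2.7% of called lower genes. Of the 10 listed genes that rose, 7 had a window and 3 of these held the core, and those windows are shown to give the element as it stands near the start of genes that rose. Ifit1 (log2 change 0.89, SE 0.28, edgeR adjusted p 0.036, called in 7 of the 12 fits that left out 1 library) and Stat2 (log2 change 0.95, SE 0.23, edgeR adjusted p 0.0122) were chosen for this after their values were seen. The sequences are from RefSeq on GRCm38.p6, 5′ to 3′ on the strand of the gene, with the core in capitals, which reads TTTC in place of GAAA where it lies on the other strand.
Ifit1 (chr19:34640639-34640938, plus strand): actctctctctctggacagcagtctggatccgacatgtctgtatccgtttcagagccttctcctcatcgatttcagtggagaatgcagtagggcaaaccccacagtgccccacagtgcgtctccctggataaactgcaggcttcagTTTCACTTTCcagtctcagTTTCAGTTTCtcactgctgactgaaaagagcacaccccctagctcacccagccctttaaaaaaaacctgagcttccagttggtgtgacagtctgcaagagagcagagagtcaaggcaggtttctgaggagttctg
Ifit3 (chr19:34583279-34583578, plus strand): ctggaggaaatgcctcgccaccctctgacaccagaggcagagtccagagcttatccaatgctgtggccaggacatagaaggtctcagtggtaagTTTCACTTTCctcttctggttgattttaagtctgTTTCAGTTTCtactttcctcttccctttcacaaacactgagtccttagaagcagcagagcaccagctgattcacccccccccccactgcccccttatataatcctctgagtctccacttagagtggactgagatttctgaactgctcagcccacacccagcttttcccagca
Stat2 (chr10:128270248-128270547, plus strand): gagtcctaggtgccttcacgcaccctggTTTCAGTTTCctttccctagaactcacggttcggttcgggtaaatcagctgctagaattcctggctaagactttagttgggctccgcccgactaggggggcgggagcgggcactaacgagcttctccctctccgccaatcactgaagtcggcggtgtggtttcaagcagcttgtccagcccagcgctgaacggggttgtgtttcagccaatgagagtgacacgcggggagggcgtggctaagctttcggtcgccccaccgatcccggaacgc

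Immediate early genes, which respond within minutes to stress and to enzymatic release of cells, leaned one way with few members past the test. All 22 tested had a log2 change above 0 (median 1.06), 6 rose and 0 fell in edgeR, and 2 were called without replicate 3 (median 0.67), while DESeq2 called 11. The count was 2 to 3 without any 1 of the Des+/+ non-swim libraries and 12 without Des-/- non-swim replicate 3. Ier2 stood at 171, 239 and 244 CPM against 585, 565 and 825 CPM (log2 change 1.59, SE 0.24, edgeR adjusted p 0.00134). Junb stood at 262, 425 and 382 CPM against 959.7, 879.6 and 1519 CPM (log2 change 1.65, SE 0.30, edgeR adjusted p 0.00333). For both, every Des-/- swim library was above every Des+/+ library. Of 24 cell death regulators 6 rose and 3 fell (median 0.52), and 5 rose and 4 fell without replicate 3. Those that rose included Gsdmd, the pore of pyroptosis, from 36.9, 26.4 and 30.4 CPM to 72.8, 65.8 and 69.3 CPM (log2 change 1.15, SE 0.16, edgeR adjusted p 0.0011), the initiator caspase Casp8 (log2 change 1.10, SE 0.20, edgeR adjusted p 0.00303) and Bax (log2 change 0.95, SE 0.19, edgeR adjusted p 0.00491). In the integrated and endoplasmic reticulum stress list 3 of 21 genes rose and 3 fell (median 0.25, and -0.28 without replicate 3), or 3 and 1 without Des-/- swim replicate 1, with asparagine synthetase Asns at 1.08 (SE 0.20, edgeR adjusted p 0.00321) and the chaperone Dnajb9 at -0.81 (SE 0.20, edgeR adjusted p 0.0116). The fetal and pathological stress programme had 2 genes higher and 3 lower of 18 (median -0.10), which became 1 and 2 without Des+/+ non-swim replicate 2 and 1 and 5 without Des-/- swim replicate 3. The shares called in the integrated stress and fetal lists, 28.6% and 27.8%, were near the 26.9% of all genes tested. Uchl1, a ubiquitin hydrolase of the fetal list, rose from 9.66, 12.9 and 9.38 CPM to 44.4, 47.0 and 24.6 CPM (log2 change 1.86, SE 0.29, edgeR adjusted p 0.00159).

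Of the leukocyte lists few members passed the test. Of the 22 macrophage markers 0 were called in edgeR and in DESeq2, 4 had an unadjusted p under 0.05 in edgeR and 1 was called lower without replicate 3, although the median log2 change was 0.98 with that replicate and 0.17 without it. Without Des-/- non-swim replicate 3, 7 were called higher. The highest of them, Lyz2, stood at 138, 92.8 and 86.1 CPM against 135, 88.1 and 494 CPM, so that replicate 3 alone lay above the Des+/+ range (log2 change 1.18, edgeR adjusted p 0.318). Of 16 genes of osteopontin, galectin-3 and repair macrophages 3 rose and 1 fell (median 1.21, and 0.70 without replicate 3), or 10 and 1 without Des-/- non-swim replicate 3 and 5 and 1 without its replicate 2, among them Apoe, the lipid carrier, from 523, 521 and 676 CPM to 1450.3, 1078 and 2368 CPM (log2 change 1.51, SE 0.32, edgeR adjusted p 0.00642). Complement had 3 of 20 genes higher, chemokines and their receptors 1 of 25 and antigen presentation 1 of 14, and each of these lists had 0 higher without replicate 3 of Des-/- swim or replicate 3 of Des+/+ non-swim, and 7, 4 and 2 higher without Des-/- non-swim replicate 3. The shares higher in these 3 lists, 15%, 4% and 7.14%, stand beside 10.1% of all genes tested. Proliferation markers had 1 of 22 higher (median 0.52), and 0 without Des-/- swim replicate 3 (median -0.16). Of 7 erythrocyte genes 3 rose, the haemoglobin genes Hba-a1, Hba-a2 and Hbb-bs, whose near-identical copies may share reads. All 3 lost their calls without Des+/+ non-swim replicate 1 or 2 or Des-/- swim replicate 2.

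Among the lists left, exercise growth signalling had 9 of 22 genes lower and 2 higher (median log2 change -0.24), and 6 lower without replicate 3, with 1 to 4 higher when 1 of the 12 libraries was left out. Akt2, a kinase of insulin and growth signalling, fell from 148, 198 and 154 CPM to 80.6, 72.0 and 69.0 CPM (log2 change -1.17, SE 0.14, edgeR adjusted p 7.68e-04). Nrg1, the neuregulin that endothelium releases onto cardiomyocytes, stood at 0.825, 0.351 and 1.44 CPM against 4.69, 4.81 and 2.46 CPM, a rise from a low level (log2 change 2.14, SE 0.54, edgeR adjusted p 0.0138). Of 9 cardiac progenitor markers 2 rose, Ly6a (0.97) and Abcg2 (0.60), and 2 fell, and of 11 atrial markers 4 fell and 1 rose. Tubulin genes had 1 of 20 higher, Tuba1c (1.05), and 1 lower, Tuba4a (-1.33), pericyte and smooth muscle markers 2 of 14 lower, and the circadian clock 1 of 19 lower. Leaving out 1 library gave 2 to 4 lower atrial markers, 0 to 4 lower pericyte and smooth muscle markers, 0 to 2 lower tubulin genes, 0 to 1 lower clock genes and 0 to 2 higher proliferation markers. Abcg2 and Tuba4a were called in 10 and 8 of the 12 such fits. In edgeR 0 of 6 lymphocyte, 4 neutrophil, 9 Schwann cell, 6 adipocyte and 11 epicardial markers were called, with 2, 0, 2, 1 and 2 of them at an unadjusted p under 0.05 and 0, 1, 1, 1 and 1 called higher by DESeq2. Without replicate 3, edgeR called 2 lymphocyte markers and 1 adipocyte marker higher.

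**Figure D3:**
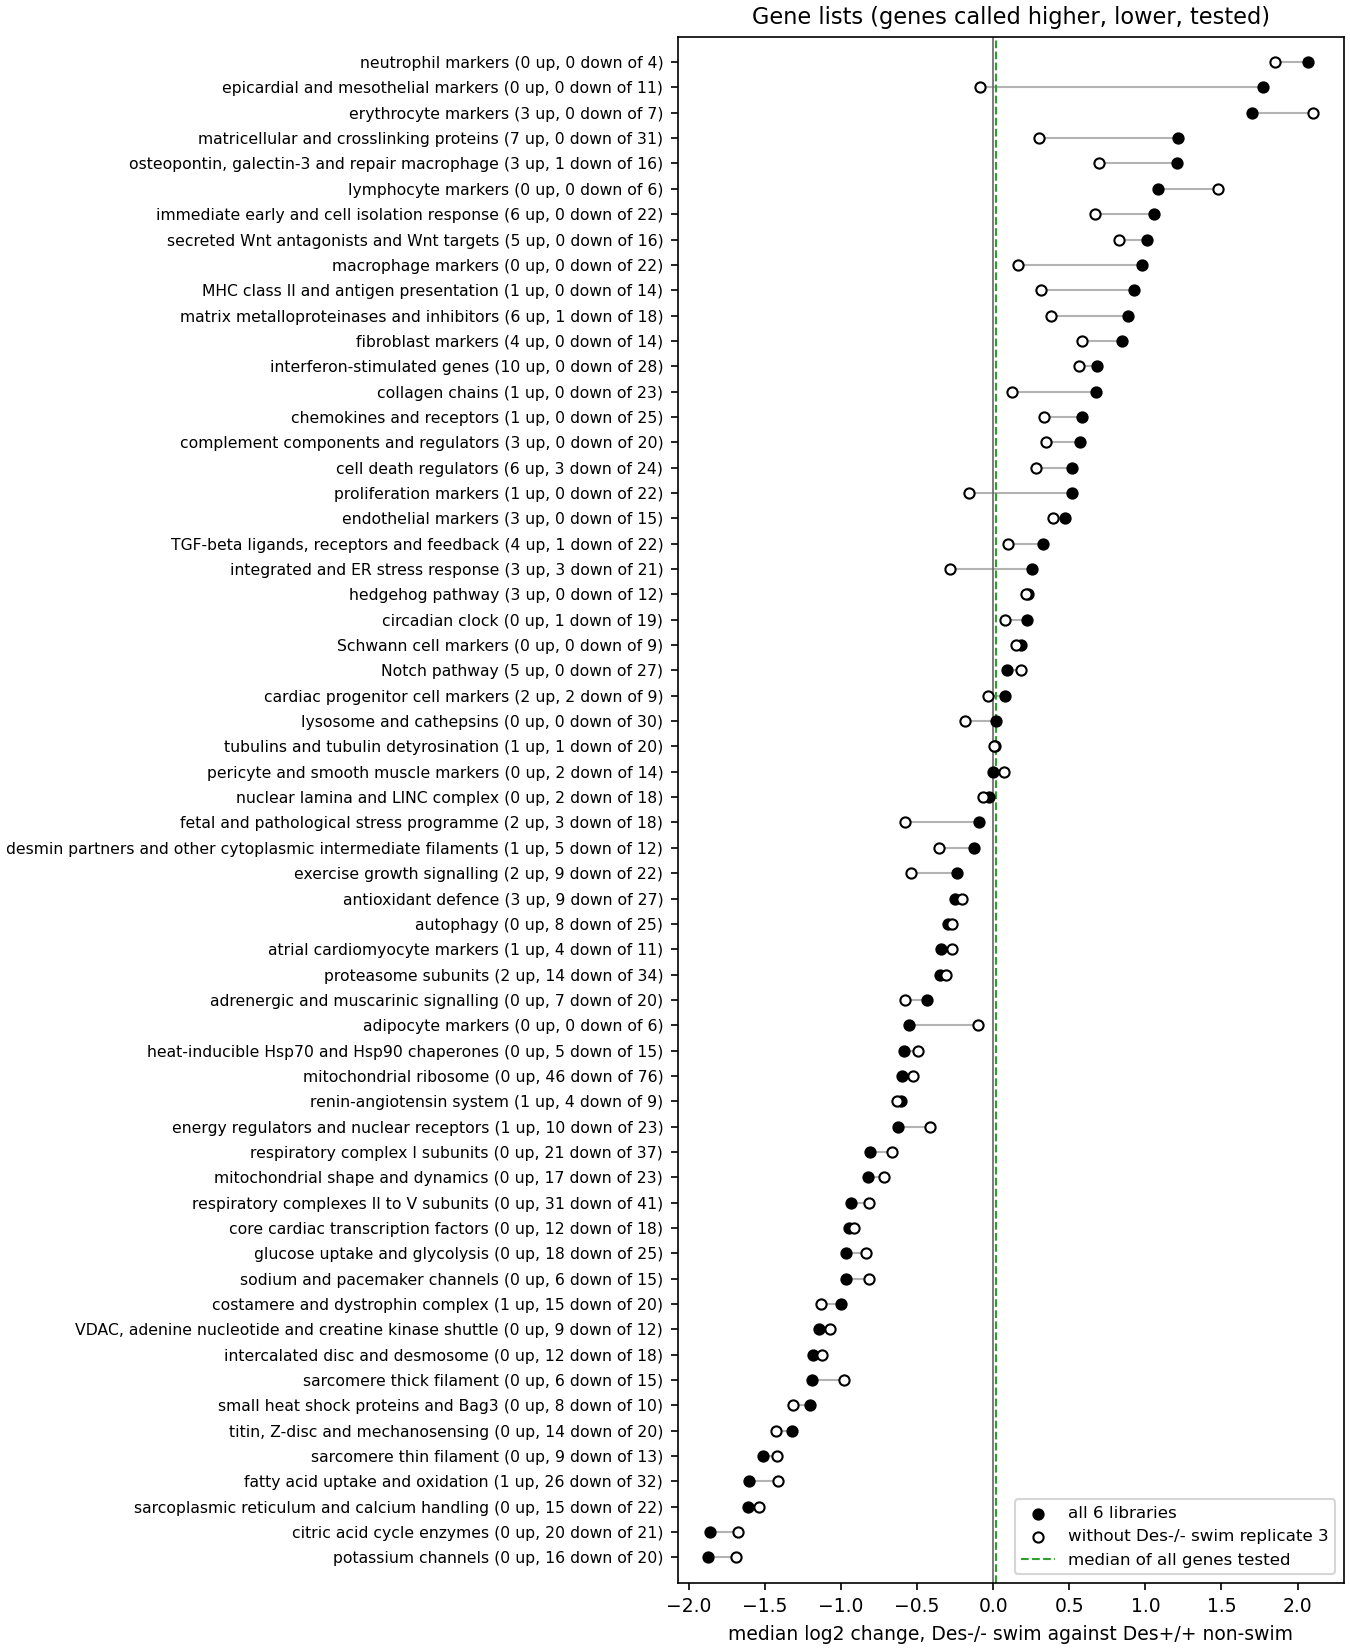
Median log2 change of each of the 60 gene lists, Des-/- swim against Des+/+ non-swim (filled: all 6 libraries, open: without Des-/- swim replicate 3, dashed: median of all 13158 genes, 0.02), with the genes called higher and lower and those tested after each name. Lists of metabolism, calcium, channels and contractile structure lie at the bottom, down to -1.87 (-1.69 without replicate 3), whereas epicardial markers go from 1.78 to -0.08.

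Since both the genotype and the exercise differ between the groups, the comparison alone cannot tell them apart. For each gene the change can be written as a sum in 2 ways: the genotype step in non-swum mice followed by the swimming step in Des-/- mice, or the swimming step in Des+/+ mice followed by the genotype step in swum mice. These steps share libraries with the combined comparison and with each other, and their medians are set side by side as descriptions. For citric acid cycle enzymes the combined median of -1.86 stood beside -1.98 for genotype without swimming and 0.25 for swimming in Des-/-, and by the other route beside -0.62 for swimming in Des+/+ and -1.21 for genotype after swimming. Complex I subunits had -1.44 and 0.64 on the first route and -0.38 and -0.45 on the second, for a combined median of -0.81. Thin filament genes had -1.82 and 0.29, then -0.64 and -0.67. In these lists the step of swimming had a positive median in the null and a negative median in the wild type. Interferon-stimulated genes had medians of 0.66 and -0.02 on the first route and 0.72 and 0.00 on the second, so that the median was similar after either factor alone and with both. Collagen chains had 2.13 and -1.01, then -0.41 and 1.15, and macrophage markers 2.65 and -1.40, then 0.07 and 1.12. Des-/- non-swim replicate 3 enters the first of these steps and lies farthest out on the first principal component, at 102.11, and its part in them was not tested. Endothelial markers had -0.02 and 0.40, then 0.54 and -0.06, so that both swimming medians were positive and both genotype medians slightly negative. Single steps of swimming called few genes, 3 in Des-/- and 12 in Des+/+ mice, so these medians come mostly from genes that did not pass a test.

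**Figure D4:**
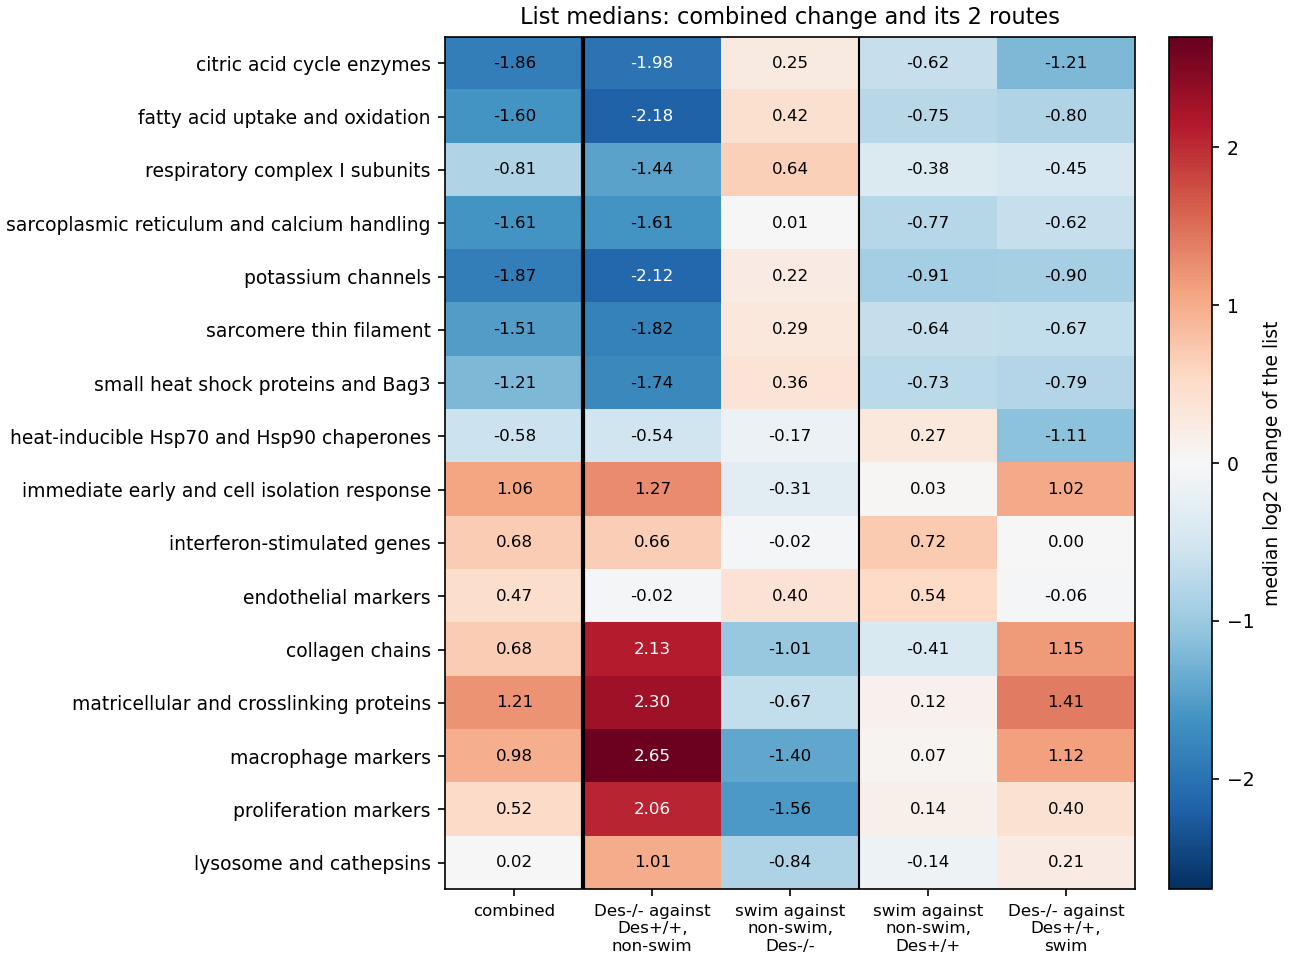
Median log2 change of 16 gene lists for the combined comparison (left) and for the steps of the 2 routes that lead to it, with colour from blue (lower) to red (higher). The citric acid cycle reads -1.86, then -1.98 and 0.25 on the first route and -0.62 and -1.21 on the second, and macrophage markers 0.98, then 2.65 and -1.40, and 0.07 and 1.12.

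The remaining 6 libraries give a comparison that shares no library with this one: Des-/- non-swim against Des+/+ swim, in which the genotype differs in the same sense and swimming in the opposite sense. It called 2959 genes (22.5%), 1528 higher and 1431 lower, a count that rested on single libraries, with 960, 1388 and 1916 without Des+/+ swim replicates 3, 1 and 2, 1365 without Des-/- non-swim replicate 3 and 1645 when only these 6 libraries were fitted. Of these 1340 were also called here, which is 37.9% of the calls of the combined comparison and 45.3% of those of the crossed one, shares that hold for the fit over all 12 libraries. Of the genes that fell in Des-/- swim ACM, 2010 (91.3%) had a change below 0 in the crossed comparison, and of those that rose, 1012 (76%) had one above 0, beside 50.9% of all genes tested. Averaged over both comparisons, which gives the genotype change with swimming balanced, 5250 genes (39.9%) were called. Des changed by -4.62 here and -4.42 in the crossed comparison, Acadl by -2.27 and -1.71, Comp by 3.33 and 2.53, and Fmod by 2.92 and 2.28. The sign was the same in both for each of these genes. Gja1 changed by -1.72 here and -0.12 in the crossed comparison, and Gata4 by -1.35 and -0.03. Angptl7 changed by 3.62 and 1.39 (edgeR adjusted p 0.00137 and 0.061).

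Genes that moved with the exercise were tested by the swimming change averaged over genotypes, which is the mean of the swimming steps in Des-/- and Des+/+ mice. This test called 109 of 13158 genes (0.828%), 81 higher and 28 lower after swimming, with 2580 at an unadjusted p under 0.05, and DESeq2 called 826. The count rested on single libraries, from 6 without Des+/+ swim replicate 3 to 284 without Des-/- swim replicate 3. By the naming rule the higher genes were Ercc1, Pparg, Agt, Tinagl1, Stx3, Tcf23, Gpihbp1 and Rbp7, and the lower genes Adam19, Klhl13, Frmd6, Ephb3, Tbx20, Dars, Ecm2 and Sesn3. Ercc1 (chr7:19344778-19356524), a nuclease subunit of DNA repair, stood at 25.0, 36.0 and 33.9 CPM in Des+/+ non-swim and at 84.7, 90.5 and 102 CPM in Des-/- swim libraries. Its swimming change averaged over genotypes was 1.33 (SE 0.10, edgeR adjusted p 3.70e-04), and in the combined comparison its log2 change was 1.55 (SE 0.14, edgeR adjusted p 6.05e-04). Pparg (chr6:115360951-115490399) stood at 42.9, 40.8 and 46.6 CPM against 78.5, 94.9 and 80.5 CPM, with 100.4 ± 10.9 CPM (SD, n = 3) in Des+/+ swim and 42.7 ± 4.2 CPM (SD, n = 3) in Des-/- non-swim libraries. Both swum groups were thus high and both non-swum groups low (averaged change 1.10, SE 0.09, edgeR adjusted p 6.03e-04). Ercc1, Pparg and Agt stayed called for this change in each of the 12 fits that left out 1 library.

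Angiotensinogen (Agt, chr8:124556534-124569706), the precursor of angiotensin, had the largest of these changes. Its level was 4.01, 7.13 and 5.32 CPM in Des+/+ non-swim and 18.5, 9.84 and 20.01 CPM in Des-/- swim libraries (combined log2 change 1.56, SE 0.34, edgeR adjusted p 0.00684), with 16.8 ± 5.85 CPM (SD, n = 3) in Des+/+ swim and 1.24 ± 0.0949 CPM (SD, n = 3) in Des-/- non-swim libraries. Agt was thus lowest in the null that had not swum. The receptor Agtr1a moved otherwise, from 28.5, 68.6 and 41.6 CPM to 13.7, 17.1 and 10.9 CPM (log2 change -1.74, SE 0.38, edgeR adjusted p 0.00687), and of 9 genes of the renin-angiotensin system 4 fell and 1, Agt, rose. The falls were 2 in 7 of the 12 fits that left out 1 library. Rbp7, a retinol binding protein of endothelium, stood at 174, 82.5 and 228 CPM against 807, 966 and 729.7 CPM (log2 change 2.37, SE 0.36, edgeR adjusted p 0.00153). Gpihbp1, which anchors lipoprotein lipase to the capillary wall, rose as well, with a log2 change of 1.34 (SE 0.24, edgeR adjusted p 0.00276). Both are known from capillary endothelium, whose summed markers were also higher in these libraries, and the part of that in their rise was not tested. Of the 8 lower genes 6 also fell in the combined comparison, among them the cardiac transcription factor Tbx20 (log2 change -0.66, SE 0.19, edgeR adjusted p 0.0226). Tbx20 was called there in 9 of the 12 fits that left out 1 library, and Frmd6 and Sesn3 did not pass (adjusted p 0.158 and 0.101). For the swimming change itself, Adam19 was called in 12 of these fits. Klhl13 and Ephb3 were called for it in 5, Tbx20 and Frmd6 in 4, and Dars, Ecm2 and Sesn3 in 2.

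**Figure D5:**
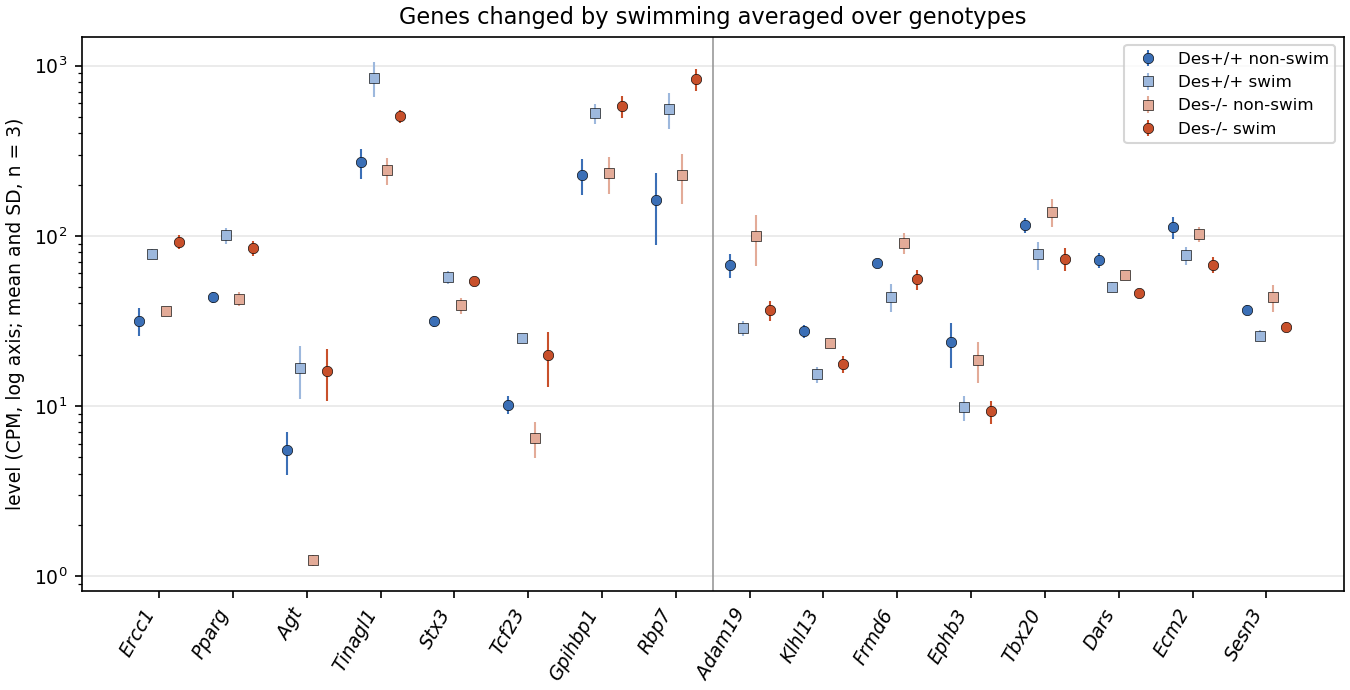
Mean level and SD (CPM, log axis, n = 3 libraries) of the 16 genes named for swimming averaged over genotypes, in all 4 groups (left of the line: higher after swimming, right: lower). Pparg stands at 100.4 CPM in Des+/+ swim and 42.7 CPM in Des-/- non-swim libraries, and Agt is lowest in Des-/- non-swim at 1.24 CPM.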

How the data were processed

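Poly-A RNA of adult cardiomyocytes was measured in 12 libraries, 3 per group, each a pool of several mice, so p-values measure the spread between pools. The authors aligned single-end reads to GRCm38/mm10 with HISAT2 2.2.1, used SAMtools 1.13, and counted reads per gene with HTSeq in its reverse-stranded setting. The deposited values are these raw counts, and the authors' own tests used DESeq2 1.40.2. The labels name a library kit that does not keep strand and the methods one that does. Rows for reads outside genes were left out of library sizes.

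Counts were fitted with edgeR 4.0.16 in R 4.3.3 (quasi-likelihood test, filterByExpr, TMM scaling, 4 group means over all 12 libraries, Benjamini-Hochberg adjustment over 13158 genes), and called at an adjusted p under 0.05. CPM are counts scaled to one common TMM-adjusted library total. The fit leaves 8 residual degrees of freedom. A count of 3, the floor, is 0.656 CPM in the shallowest library. SE is the log2 change divided by the square root of F. DESeq2 1.42.0, other scalings and filters, thinning to equal depth, the replicate number as a block and omission of single libraries were alternatives.

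Named genes were Des, the 12 largest called changes each way among genes with a mean scaled count of at least 20 in the higher group and no overlap (predicted, microRNA, Y-linked genes and Xist left out), up to 4 called members per list by p with the best in the other direction, and 8 genes each way for swimming. An item named by this rule is not reported here. The comparison, the 60 gene lists and this rule were chosen with earlier results of these data known. Promoter windows are RefSeq sequences (GRCm38.p6). Gene positions are from GENCODE M21, to which 21488 of 21493 listed genes were matched.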

Additional observations from a re-analysis of the deposited data

Results flagged for a closer look

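Reads that fell in no gene lie outside every comparison of genes and were set apart because their share was above that of the control libraries. Of uniquely aligned reads they took 60.01 ± 3.95% in the Des-/- swim group and 36.43 ± 2.71% in the unexercised Des+/+ group (SD, n = 3 each), a difference of 23.58 percentage points (exact permutation test, two-sided p 0.1, the smallest possible with 3 against 3). The difference was 21.32 to 25.03 points when each library was left out in turn. A raised share was not particular to the Des-/- swim group. It was 47.3, 45.9 and 50.4% in the Des+/+ swim libraries. In Des-/- non-swim replicates 1, 2 and 3 it was 52.3, 49.0 and 34.2%.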

How the results depend on the processing

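The count of 3533 called genes was 3492 with RLE scaling, 3655 with upper-quartile scaling, 4072 with library totals, 3151 without a filter on low counts, 3330 with only the 6 libraries compared, 3237 after thinning to the lowest depth, 4132 with DESeq2 and 3613 with the study's filter. Leaving out 1 library gave 2263 (without Des+/+ non-swim replicate 2) to 4127. The percent of called genes that were higher was 51.57 with upper-quartile scaling and 66.82 with library totals, which turns the balance, and 41.76 without a filter, 43.0 with only the libraries compared, 43.85 with DESeq2, 42.32 with the study's filter and 29.42 to 42.5 leaving out 1 library. The crossed comparison called 1645 genes with only its own libraries and 960 to 3351 leaving out 1 library. The swimming average called 826 genes with DESeq2, 758 with the study's filter and 6 to 284 leaving out 1 library. The genotype average called 4435 to 5264 genes leaving out 1 library, and 3526 (the study's filter) to 6011 (library totals) with the other settings. Of list medians, the integrated and ER stress list went from -0.282 to 0.489 and the epicardial list from -0.084 to 2.227 when 1 library was left out, both lowest without Des-/- swim replicate 3, and exercise growth signalling was at 0.008 with library totals. The cause of these changes was not tested. The spread of a list is the SD of its median between replicates, pooled over both groups, so a library lying apart widens it. A median counted as reversed only if its main value exceeded this spread. Over all settings, 1189 list medians moved by no more than the spread, 67 by more, and 3 reversed. Proliferation markers, at 0.515 and at -0.16 without Des-/- swim replicate 3 (spread 0.953), were not among the 3. Macrophage markers, at 0.98 and 0.165 (spread 0.928), counted as within the spread. Of the values of 228 single genes 4478 kept their side of the threshold, 276 lost a call and 13 gained one. Of called genes 0 changed sign, while Msln, not called, went from 1.84 to -0.03 without that replicate. Of the 228 genes 211 were called, 158 of them in every setting run, and 51 lost the call without some library. Between the 2 groups compared, same-numbered libraries did not deviate alike (correlations -0.1, -0.047 and -0.122), and with the replicate block 3535 genes were called. These correlations do not cover the other groups. Replicate 3 was the highest on the first principal component in both Des-/- groups, at 102.11 and 59.04, and a shared batch was not tested. Depth limits genes near 3 counts, most of all in Des-/- swim replicate 2.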
